A study of Mus musculus with 6 samples.

Results

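Sfrp2 and 9 other genes of Wnt signaling were followed in the kidneys of cisplatin-treated WT and Trpm2-/- mice. The 10 genes are Sfrp2, Sfrp1, Dkk3, Wnt4, Wnt5a, Wnt7b, Wnt9b, Fzd1, Ctnnb1 and Axin2, and each had 1 row of its own among the 54532 genes of the deposited tables. They were chosen by name. Sfrp2 was chosen on its large difference between these same genotypes, and the others were set around it as secreted inhibitors, ligands, a receptor, the relay protein and a target of the pathway. For that reason the values of the 10 genes in WT and Trpm2-/- mice are a description, with no p-value, and support nothing by themselves.

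Wnt proteins are secreted, lipid-modified ligands that bind Frizzled receptors together with the co-receptors Lrp5 and Lrp6. In the canonical branch, binding halts a cytoplasmic destruction complex built on Axin and Apc, so that β-catenin accumulates, enters the nucleus and switches on target genes with TCF/LEF factors. In other branches the ligands act through calcium or cell polarity without β-catenin. Secreted Frizzled-related proteins carry a Frizzled-like domain that binds Wnt ligands outside the cell. In the kidney the pathway is known for building the tubules during development, when Wnt9b from the ureteric bud induces Wnt4 in the mesenchyme, and for its return after injury.

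RNA-sequencing was performed on kidneys of 3 WT mice (mice 1, 2 and 3) and 3 Trpm2-/- mice (mice 1, 2 and 4), a comparison made to find how loss of the cation channel TRPM2 alters the response to cisplatin. All mice were of the C57BL/6J strain by the labels, which give an age of 6 to 8 weeks, while the study's methods give an older age for cisplatin-treated mice, name them males and give the injection as 18 mg/kg with kidneys taken at 72 h. The Trpm2-/- mice carry an allele whose protein lacks part of the transmembrane domains, the WT mice were purchased, and both genotypes received cisplatin, so that neither untreated levels nor a response to the drug can be read from these samples. Because RNA of kidney tissue was sequenced in bulk, fewer cells of a type and less RNA per cell cannot be told apart.

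The libraries held between 14053307 and 17150089 counts on genes. Trpm2 had 5, 5 and 27 counts in WT mice and 10, 16 and 20 in Trpm2-/- mice, and since the allele removes only some exons, these counts do not check the genotype. Mitochondrially encoded genes took 4.43 to 4.72% of counts in WT mice and 7.91 to 11% in Trpm2-/- mice. None of the marker genes listed for kidney cell types was at 0 in every library. Some had only a few counts, such as Mfap5 and Lum, so this does not check the kidney label. The proximal tubule sum of 8 markers was 629 to 803 FPKM in WT mice and 192 to 256 FPKM in Trpm2-/- mice, where FPKM is the fragment count scaled by gene length and library size.

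**Figure D1:**
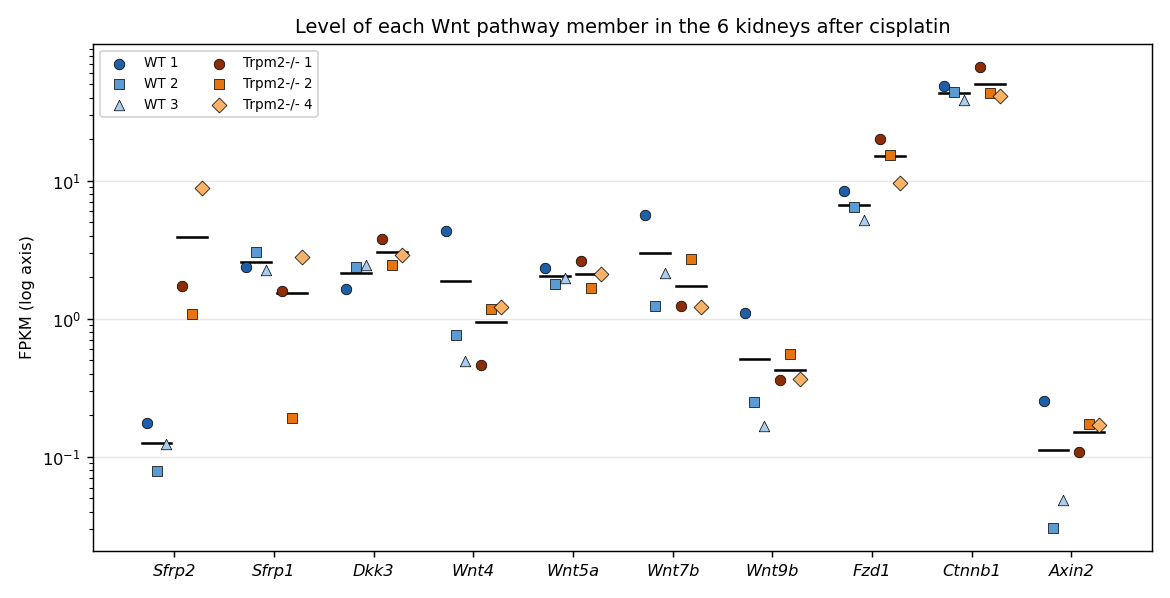
Level of the 10 genes in each of the 6 mice, in FPKM on a log axis, with a black bar at the mean of each genotype (n = 3). Sfrp2 and Fzd1 are the genes whose Trpm2-/- mice all lie above the WT mice, and WT mouse 1 stands above the other WT mice in Wnt4, Wnt7b, Wnt9b and Axin2.

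Sfrp2 was the member that differed most. Its counts were 7, 3 and 5 in WT mice and 69, 39 and 348 in Trpm2-/- mice. In CPM (counts scaled by the TMM library sizes), it stood at 0.432, 0.193 and 0.307 in WT mice and at 4.22, 2.66 and 21.7 in Trpm2-/- mice. All 3 Trpm2-/- mice lay above all 3 WT mice, and in FPKM Trpm2-/- mouse 4 lay 5.17 times above the next highest mouse. The mean was 0.310 ± 0.120 CPM (SD, n = 3) in WT mice and 9.52 ± 10.6 CPM (SD, n = 3) in Trpm2-/- mice, where the SD exceeded the mean. The fitted log2 fold change was 4.90 (SE 0.873), which is 29.9-fold and ranked 3 among the 15816 genes tested. Without Trpm2-/- mouse 4 it was 3.45. Sfrp2 passed the filter on low counts only through its Trpm2-/- libraries. With so few reads in WT mice the level there is loosely known, since the exact binomial 95% interval of the count in WT mouse 2 ran from 0.0369 to 0.523 CPM of the unscaled library total, while in Trpm2-/- mouse 4 it ran from 20.4 to 25.3 CPM. These intervals cover counting error only.

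Sfrp2 lies on chromosome 3 from 83766321 to 83774316 on the plus strand of GRCm38, and its exons merge into 5 that span 2153 bases. An antisense gene, Gm26771, overlaps 16.1% of the exonic bases of Sfrp2 and had 1 count over all 6 libraries. The 250 bases before the annotated start are printed here for the genes whose levels the description turns on most, Sfrp2 with the largest difference, Fzd1 with the other difference free of overlap, and Axin2 as the direct target of β-catenin. They come from RefSeq (GRCm38.p6), 5′ to 3′ on the strand of the gene, and capitals mark a GC box, which is GGGCGG read on either strand, and a TATA box, which is TATAAA read on either strand.
Sfrp2, chr3:83766071-83766320, plus strand: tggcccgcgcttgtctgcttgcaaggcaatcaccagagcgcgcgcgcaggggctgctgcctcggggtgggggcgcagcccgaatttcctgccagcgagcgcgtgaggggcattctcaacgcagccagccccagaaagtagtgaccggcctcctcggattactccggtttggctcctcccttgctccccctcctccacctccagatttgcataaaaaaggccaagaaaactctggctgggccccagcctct
Fzd1, chr5:4758217-4758466, minus strand: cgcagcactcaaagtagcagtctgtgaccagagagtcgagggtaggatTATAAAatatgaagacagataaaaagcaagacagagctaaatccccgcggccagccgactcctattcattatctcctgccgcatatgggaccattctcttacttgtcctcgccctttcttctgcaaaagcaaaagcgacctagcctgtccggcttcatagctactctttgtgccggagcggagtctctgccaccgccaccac
Axin2, chr11:108920099-108920348, plus strand: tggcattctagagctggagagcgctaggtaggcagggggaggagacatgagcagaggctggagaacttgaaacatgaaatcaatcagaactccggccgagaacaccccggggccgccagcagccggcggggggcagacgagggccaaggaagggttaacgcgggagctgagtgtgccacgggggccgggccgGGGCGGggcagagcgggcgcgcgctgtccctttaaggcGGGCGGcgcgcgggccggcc
The Sfrp2 stretch held 0 of these boxes, that of Fzd1 held 1 TATAAA and that of Axin2 held 2 GC boxes. Boxes were counted anywhere in the 250 bases, whatever their distance from the start. The starts are those of RefSeq, and the Fzd1 stretch does not adjoin the position of the gene given below. GC boxes were found in 32.7% of all promoters of this length and TATA boxes in 12.4%. Promoter entries were found for 6 of the 10 members (Sfrp2, Wnt4, Wnt9b, Fzd1, Ctnnb1 and Axin2). The letters CTTTG followed by AT, AA, TT or TA, which TCF/LEF factors are known to bind, were searched on both strands from 250 bases before to 50 bases after the start, and occurred in 0 of these 6 genes and in 18.9% of all 27025 genes with an entry. That says only that these letters are not in these windows.

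The other secreted inhibitors overlapped between genotypes. Sfrp1, the close relative that also binds Wnt ligands, had 11.9, 15.2 and 11.2 CPM in WT mice and 7.83, 0.956 and 13.8 CPM in Trpm2-/- mice. Trpm2-/- mice 1 and 2 were below every WT mouse, mouse 2 far below with 14 reads, while Trpm2-/- mouse 4 was among the WT mice, so the genotypes overlapped. Its log2 fold change was -0.76 (SE 0.623), and it was -0.24 without Trpm2-/- mouse 2, -1.51 without Trpm2-/- mouse 4 and -2.02 with a replicate block. Dkk3, a divergent member of the Dickkopf family, had 6.29, 9.06 and 9.39 CPM in WT mice and 14.5, 9.35 and 11 CPM in Trpm2-/- mice. The groups touched, since Trpm2-/- mouse 2 lay just under WT mouse 3, and the log2 fold change was 0.50 (SE 0.245).

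The makeup of the Sfrp family differed accordingly. On the per-length scale, the 5 Sfrp genes together, Frzb (also called Sfrp3) included, came to 5, 5.94 and 6.02 FPKM in WT mice and to 3.99, 3.40 and 13.7 FPKM in Trpm2-/- mice. Sfrp2 made up 3.52, 1.32 and 2.06% of that sum in WT mice and 43.3, 31.9 and 65.0% in Trpm2-/- mice. The rest in WT mice was nearly all Sfrp1 and Frzb. In Trpm2-/- mice 1 and 2 the family sum was below every WT mouse although Sfrp2 was higher, so the family total did not follow Sfrp2 in those mice. In Trpm2-/- mouse 4 both Sfrp2 and the family sum were the highest of all mice. In the Dickkopf family, Dkk3 made up 54.9, 67.6 and 67.7% of the FPKM sum in WT mice and 78.3, 59.0 and 39.6% in Trpm2-/- mice. The low share in Trpm2-/- mouse 4 went with Dkk2, another gene of that family, at 3.75 FPKM there against 0.538 to 1.28 FPKM in the other 5 mice.

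**Figure D2:**
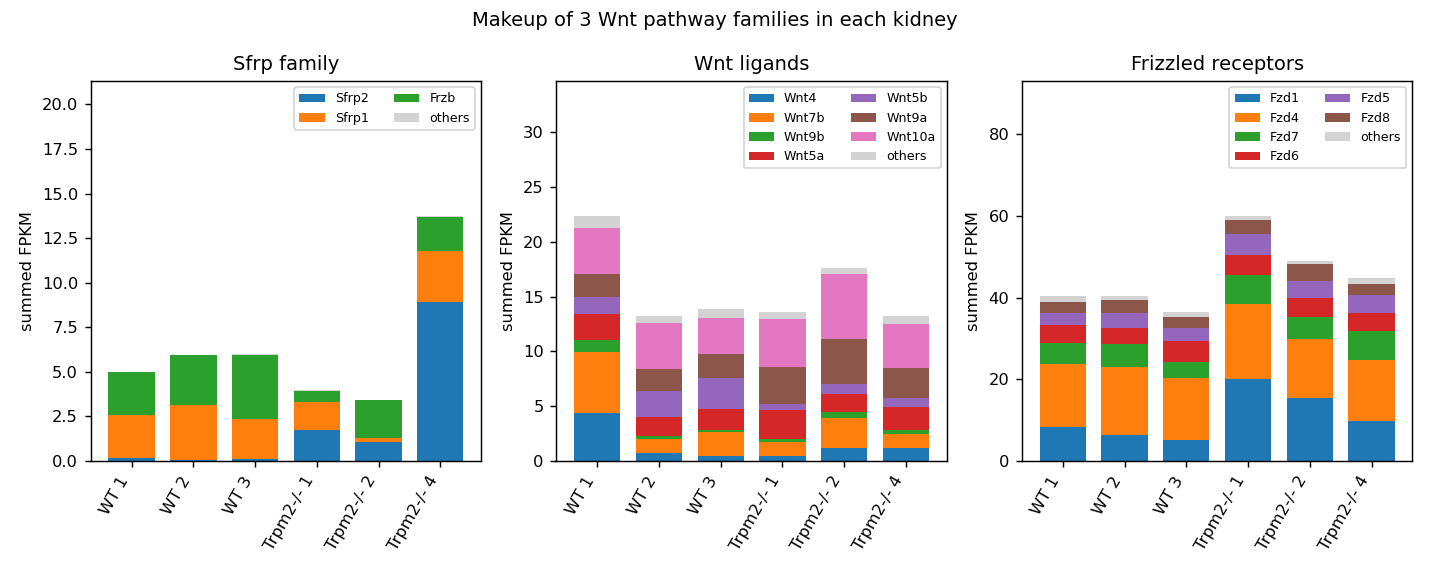
Summed FPKM of the Sfrp family (5 genes), the Wnt ligands (19 genes) and the Frizzled receptors (10 genes) in each mouse, stacked by gene, each panel with its own axis from 0. Sfrp2 is a thin base of the bar in WT mice and 31.9 to 65.0% of it in Trpm2-/- mice, and the Wnt ligand bar is highest in WT mouse 1.

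Trpm2-/- mouse 4, with the highest Sfrp2, also had more RNA of stromal and glomerular markers. The sum of 10 fibroblast and stroma markers was 7.49, 11.5 and 11.3 FPKM in WT mice and 5.60, 6.72 and 19.9 FPKM in Trpm2-/- mice. In CPM, 8 of the 10 were highest in Trpm2-/- mouse 4, which was highest in 20.3% of all genes tested in FPKM. The 6 podocyte markers summed to 29.4 to 32.5 FPKM in WT mice, to 31.1 and 24.9 FPKM in Trpm2-/- mice 1 and 2, and to 89.2 FPKM in Trpm2-/- mouse 4. The 6 endothelial markers summed to 11.3 to 14.7 FPKM in WT mice, to 6.99 and 6.67 FPKM in Trpm2-/- mice 1 and 2, and to 25.8 FPKM in Trpm2-/- mouse 4. In Trpm2-/- mice 1 and 2, where Sfrp2 was also above every WT mouse, the stroma and endothelial sums were below every WT mouse. Of the 7 stroma markers tested, 0 passed an adjusted p of 0.05 in either direction (edgeR), with log2 fold changes from -0.89 for Fbln1, a matrix protein, to 0.63 for Col3a1, a fibrillar collagen. Over all genes tested, 4.74% were higher and 7.28% lower, so few of 7 would pass at those shares. The sum of 5 smooth muscle and pericyte markers was 6.63, 6.34 and 10.7 FPKM in WT mice and 27.1, 8.91 and 16 FPKM in Trpm2-/- mice, with overlap. Of the 4 tested 1 rose, Acta2, the smooth muscle actin, with a log2 fold change of 1.46 (edgeR adjusted p = 0.0467), and Myh11, a smooth muscle myosin, had 1.05 (edgeR adjusted p = 0.0964). That list was highest in Trpm2-/- mouse 1 and not in mouse 4, and its part in the Sfrp2 level was not tested. As a ratio of FPKM values, Sfrp2 over the stroma sum was 0.0235, 0.00682 and 0.0110 in WT mice and 0.309, 0.161 and 0.449 in Trpm2-/- mice. Sfrp2 was chosen on its large difference between genotypes and the stroma sum varied less. The separation of this ratio therefore followed from that choice, and the part of stroma was not tested.

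Over the 6 mice, protein-coding genes whose pattern lay nearest to Sfrp2 included Add2, 9930111J21Rik2, Itga8 and Adamts5. Likeness was the root mean square difference of centred log2 CPM among 12655 genes, and ran from 0.908 for Add2 to 1.17 for Adamts5. Add2, a subunit of the membrane skeleton protein adducin, had 0.185, 0.257 and 0.123 CPM in WT mice and 0.857, 1.78 and 4.17 CPM in Trpm2-/- mice. Itga8, an integrin subunit of mesangial cells and stroma, had 1.73, 1.09 and 1.10 CPM in WT mice and 2.94, 1.57 and 15.6 CPM in Trpm2-/- mice. Both shared with Sfrp2 the high value in Trpm2-/- mouse 4, but in Itga8 the genotypes overlapped. Adamts5, a protease of matrix proteoglycans, had 4.01, 2.76 and 3.56 CPM in WT mice and 9.67, 12.6 and 21 CPM in Trpm2-/- mice. The log2 fold changes of these 4 were 2.07 to 3.54, below that of Sfrp2. Since likeness was measured over the same 6 mice, it describes these libraries only.

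Among the receptors, Fzd1, a Frizzled receptor encoded by a single exon, was higher in every Trpm2-/- mouse. It had 40.1, 30.8 and 25.2 CPM in WT mice and 95.4, 73.9 and 45.8 CPM in Trpm2-/- mice. The mean was 32.0 ± 7.54 CPM (SD, n = 3) in WT mice and 71.7 ± 24.9 CPM (SD, n = 3) in Trpm2-/- mice. The lowest Trpm2-/- mouse was close to the highest WT mouse, but the groups did not overlap, and the log2 fold change was 1.16 (SE 0.262), a fold of 2.24. It stayed between 0.90 and 1.41 when each mouse was left out in turn. Within the Frizzled family, Fzd1 made up 20.8, 16 and 14.4% of the FPKM sum in WT mice and 33.4, 31.4 and 21.6% in Trpm2-/- mice. Fzd4, the most abundant Frizzled gene in the WT kidneys, lay at 15 to 16.7 FPKM in WT mice and at 14.5 to 18.4 FPKM in Trpm2-/- mice. Fzd1 rested on 410 to 1559 reads per mouse, against 3 to 348 for Sfrp2.

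Sfrp2 and Fzd1 were the members on the higher side of an adjusted p of 0.05, of the study's threshold (an absolute log2 fold change above 1 with p under 0.05) and of no overlap between genotypes, and 0 of the 10 were on the lower side of any of them. Over all genes tested, 4.74% were higher and 7.28% lower at the adjusted p, 3.50% higher and 4.10% lower at the study's threshold, and 16.7% higher and 16.8% lower without overlap. Since Sfrp2 was chosen on this contrast and passed the filter only through its Trpm2-/- libraries, its place there was set by that choice, and nothing is read from the count of members.

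The Wnt ligands showed no common difference between genotypes but a common high value in 1 mouse. Wnt4, which drives the formation of epithelium from kidney mesenchyme, had 20.8, 3.66 and 2.39 CPM in WT mice and 2.20, 5.67 and 5.73 CPM in Trpm2-/- mice. Wnt7b, a collecting duct ligand needed for the medulla, had 31.3, 6.94 and 12.1 CPM in WT mice and 6.86, 15.2 and 6.72 CPM in Trpm2-/- mice. Wnt9b, made by the collecting duct lineage, had 5.74, 1.29 and 0.859 CPM in WT mice and 1.84, 2.87 and 1.87 CPM in Trpm2-/- mice. WT mouse 1 was the highest of all 6 mice for each of the 3 ligands, and the remaining WT mice lay among or below the Trpm2-/- mice.

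The direction of these ligands therefore rested on WT mouse 1. The log2 fold change of Wnt4 was -0.98 (SE 0.724) over all mice and 0.57 without WT mouse 1. For Wnt9b it was -0.27 (SE 0.637) over all mice and 1.02 without WT mouse 1. For Wnt7b it moved from -0.81 (SE 0.517) to 0.003. Wnt5a, a ligand of the branches that do not use β-catenin, behaved otherwise, with 20.7, 16.1 and 17.6 CPM in WT mice and 23.3, 14.8 and 18.7 CPM in Trpm2-/- mice. The genotypes overlapped and WT mouse 1 did not stand apart. Its log2 fold change was 0.06 (SE 0.198).

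The positions of the remaining members were read from the table on GRCm38, and equal those of GENCODE M21. Sfrp1 lies on chromosome 8 from 23411502 to 23449632 (plus strand) and Dkk3 on chromosome 7 from 112116017 to 112159057 (minus strand). The ligands lie apart, with Wnt4 on chromosome 4 from 137277489 to 137299726, Wnt5a on chromosome 14 from 28504750 to 28527448, Wnt7b on chromosome 15 from 85535437 to 85582473 and Wnt9b on chromosome 11 from 103727364 to 103749821. Fzd1 lies on chromosome 5 from 4753839 to 4758035, Ctnnb1 on chromosome 9 from 120929216 to 120960507 and Axin2 on chromosome 11 from 108920349 to 108950783. Strand was not known from the sources used here, so reads of overlapping antisense genes cannot be told apart from those of the member. AU022754 overlaps 6.61% of the exonic bases of Wnt7b and had 35, 3 and 12 counts in WT mice and 4, 7 and 21 in Trpm2-/- mice, against 108 to 508 for Wnt7b. Ulk4 overlaps 14.6% of the exonic bases of Ctnnb1 and had at most 23 counts, against 3755 to 6421 for Ctnnb1.

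**Figure D3:**
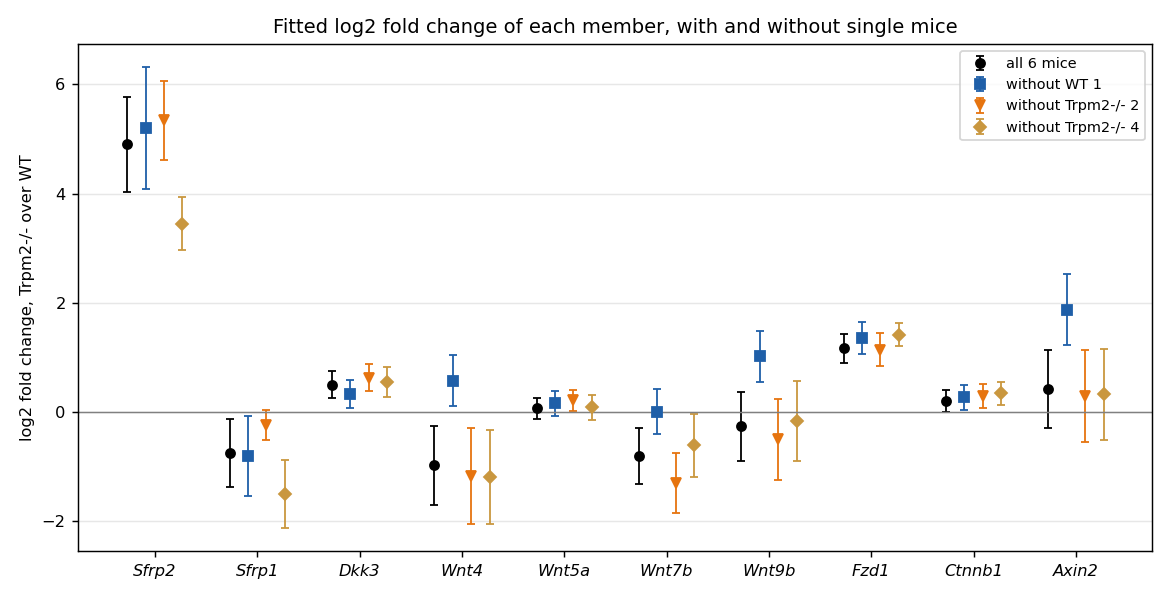
Fitted log2 fold change of each member (Trpm2-/- over WT, edgeR), with its standard error, over all 6 mice and without WT mouse 1, Trpm2-/- mouse 2 or Trpm2-/- mouse 4. Wnt4 and Wnt9b cross 0 without WT mouse 1, Sfrp2 drops to 3.45 without Trpm2-/- mouse 4, and Fzd1, Wnt5a and Dkk3 move little.

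Axin2, a negative feedback gene that β-catenin induces in most tissues, followed the same mouse. Its counts were 26, 3 and 5 in WT mice and 11, 16 and 17 in Trpm2-/- mice, or 1.60, 0.193 and 0.307 CPM against 0.673, 1.09 and 1.06 CPM. All 3 Trpm2-/- mice lay between WT mouse 1 and the other WT mice. The log2 fold change was 0.41 (SE 0.711) over all mice, 1.87 without WT mouse 1 and -0.03 without WT mouse 2. At these counts no direction could be read for Axin2. Ctnnb1, which encodes β-catenin itself, had 286, 260 and 230 CPM in WT mice and 393, 257 and 241 CPM in Trpm2-/- mice. Its genotypes overlapped with a log2 fold change of 0.20 (SE 0.198), and Trpm2-/- mouse 1 alone was above the WT mice. β-catenin is controlled mainly through its protein, which RNA levels do not show.

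WT mouse 1 was highest in 4 of the 10 members, while it was highest in 8.25% of the genes tested. Trpm2-/- mouse 1 was also highest in 4 of the 10 members (Dkk3, Wnt5a, Fzd1 and Ctnnb1), and in 23.2% of the genes tested. In FPKM, WT mouse 1 was at 3.58 times the next highest mouse in Wnt4 and 2.06 times in Wnt7b. It was at 2.0 times the next highest mouse in Wnt9b and 1.47 times in Axin2. Few genes were spread this widely within the WT mice, since a ratio of highest to lowest WT mouse as large as the 8.74 of Wnt4 was seen in 0.67% of genes and one as large as the 4.52 of Wnt7b in 2.12%, against a median ratio of 1.27. Among the Trpm2-/- mice the wide members were Sfrp1, with a ratio of 14.7 reached by 0.582% of genes, and Sfrp2, with a ratio of 8.24 reached by 1.3%.

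Uroplakins, 5 of the 8 listed markers of the urinary tract lining, had their highest sum in WT mouse 1. The sum of the 5 uroplakins, membrane proteins of the urothelium, was 27.8, 2.43 and 6.39 FPKM in WT mice and 0.636, 1.19 and 1.85 FPKM in Trpm2-/- mice. The uroplakins were taken out of the urothelium list after the values were seen, because the sum over all 8 markers of the list was led by Krt20 and read 289 to 349 FPKM in WT mice and 452 to 600 FPKM in Trpm2-/- mice. Of the 8 markers, 7 were higher in WT mouse 1 than in both other WT mice. Of the markers left out of the uroplakin sum, Krt20 was higher in every Trpm2-/- mouse than in every WT mouse. In bulk RNA the cells that made the Krt20 transcripts were not identified. Krt5 and Trp63 overlapped between genotypes. Aqp4, a water channel of the inner collecting duct, was picked from the 8 listed principal cell markers after the values were seen. It was 13.1, 1.24 and 2.71 FPKM in WT mice and 2.27, 3.01 and 3.51 FPKM in Trpm2-/- mice, so that it shared the high value of WT mouse 1. In CPM, 3 of the 8 were higher in WT mouse 1 than in both other WT mice, and 3 were highest of all mice in Trpm2-/- mouse 4. The sum of the 8 principal cell markers was led by Aqp2 and read 1010, 922 and 789 FPKM in WT mice and 433, 550 and 569 FPKM in Trpm2-/- mice. That sum was also highest in WT mouse 1, with WT mouse 2 close below. The part of the sampled tissue in the levels of Wnt4, Wnt7b, Wnt9b and Axin2 was not tested, and neither was that of stroma in the level of Sfrp2 in Trpm2-/- mouse 4.

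**Figure D4:**
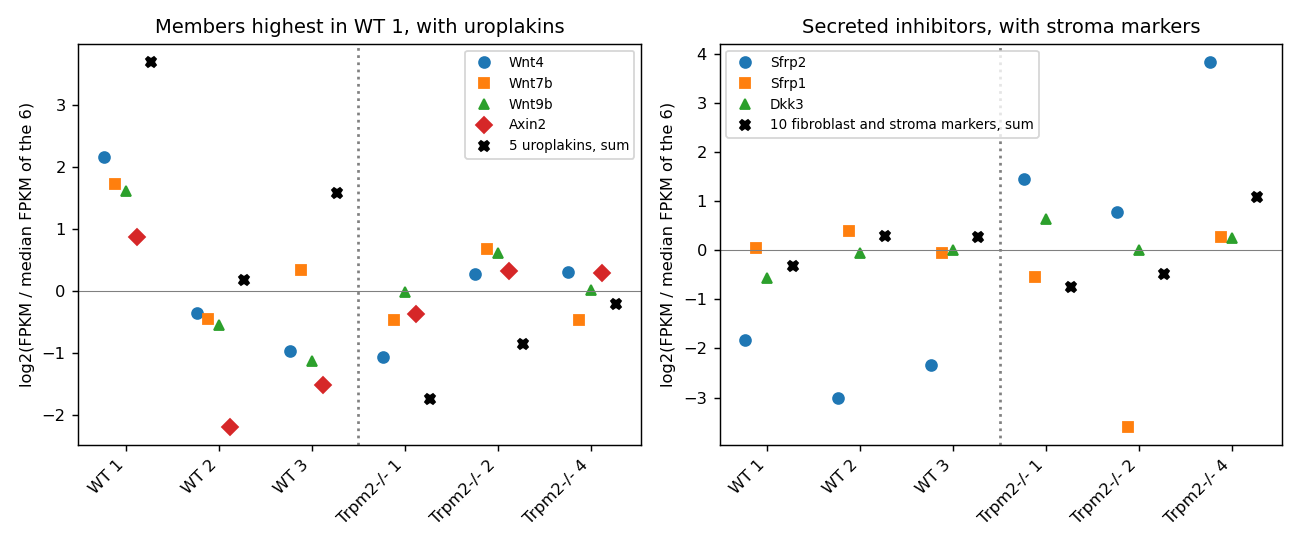
Each mouse's FPKM over the median of the 6 mice, on a log2 scale, with WT mice left of the dotted line. On the left, Wnt4, Wnt7b, Wnt9b and Axin2 are highest in WT mouse 1, as is the sum of 5 uroplakins. The uroplakins were taken out of the urothelium list after the values were seen. On the right, Sfrp2 is above its median in all Trpm2-/- mice while the sum of 10 fibroblast and stroma markers is above its own only in Trpm2-/- mouse 4 among them.

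Levels could be ranked on the per-length scale. In WT mice the medians ran from Ctnnb1 at 43.9 FPKM and Fzd1 at 6.43 FPKM through Sfrp1 (2.39), Dkk3 (2.36), Wnt7b (2.15), Wnt5a (1.96), Wnt4 (0.764), Wnt9b (0.249) and Sfrp2 (0.124) to Axin2 at 0.0486 FPKM. Only Ctnnb1 from Fzd1 and Fzd1 from Sfrp1 were neighbours without overlap, and all later neighbours overlapped. In Trpm2-/- mice the medians ran from Ctnnb1 at 43.3 FPKM and Fzd1 at 15.4 FPKM through Dkk3 (2.91), Wnt5a (2.12), Sfrp2 (1.73), Sfrp1 (1.58), Wnt7b (1.23), Wnt4 (1.18) and Wnt9b (0.367) to Axin2 at 0.171 FPKM. Here neighbours without overlap were Ctnnb1 from Fzd1, Fzd1 from Dkk3, Wnt7b from Wnt4 and Wnt9b from Axin2. Sfrp2 thus moved from place 9 to place 5, next to Wnt5a and Sfrp1, whose ranges it overlapped. Axin2 was the lowest of the members in both genotypes by median. Among all 19 Wnt ligands, whose sum was 13.2 to 22.4 FPKM in WT mice and 13.3 to 17.6 FPKM in Trpm2-/- mice, Wnt10a at 3.32 to 5.89 FPKM was the leading gene in all mice except WT mouse 1, where Wnt7b at 5.61 FPKM and Wnt4 at 4.35 FPKM were above its 4.16 FPKM.

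Beyond the members, 144 other genes of the pathway were listed by role, all had a row, and 109 passed the filter on low counts. These were tested with the quasi-likelihood test of edgeR, adjusted over all 15816 genes. At an adjusted p under 0.05, 12 rose (11%, against 4.74% of all genes) and 2 fell (1.83%, against 7.28%). Because the lists were chosen with earlier results of these data known, these shares are a description and give no independent support. The median log2 fold change of the 109 was 0.15, against 0.02 over all genes tested. The counts depend on single mice, since 1 gene was higher without WT mouse 2 and 2 without WT mouse 3, when calls over all genes also fell, to 176 higher without WT mouse 2 and 160 higher without WT mouse 3. A gene can stand in more than 1 list.

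Beside the members, 0 ligands, inhibitors or receptors were higher at an adjusted p under 0.05. The nearest was Wnt9a, a ligand with 7.83, 7.71 and 8.10 CPM in WT mice and 13, 15.8 and 10.3 CPM in Trpm2-/- mice, whose groups did not overlap, with a log2 fold change of 0.72 (SE 0.212, edgeR adjusted p = 0.0551). It is named after its values were seen. Of 5 further ligands tested, Wnt5b fell, from 6.86 ± 1.90 CPM (SD, n = 3) in WT mice to 2.17 ± 0.622 CPM (SD, n = 3) in Trpm2-/- mice, with a log2 fold change of -1.66 (SE 0.338, edgeR adjusted p = 0.0142). It is a ligand of the branch without β-catenin, and its close relative Wnt5a overlapped between genotypes. The call of Wnt5b was lost in 2 of 14 other settings, without WT mouse 2 and without WT mouse 3. Of 9 genes that process or release ligands, Notum, an enzyme that strips the lipid from Wnt proteins, fell with a log2 fold change of -0.77 (SE 0.214, edgeR adjusted p = 0.0462), although 26.2% of the 75-base windows of its transcripts are shared with 2 other genes, Myadml2os and Notumos. The call of Notum was lost in 7 of 14 other settings, among them a replicate block and both FPKM scales. Among 7 further inhibitors tested, 0 passed. Frzb had a log2 fold change of -0.94 (edgeR adjusted p = 0.163) and Kremen1, a partner of Dickkopf proteins, 0.34 (edgeR adjusted p = 0.182). Among 13 further receptors 0 passed the adjusted p, the nearest being Fzd5 at 0.42 (edgeR adjusted p = 0.098) and Ror2, a receptor for Wnt5a, at -1.14 (edgeR adjusted p = 0.144). Ror2 was past the study's threshold in the lower direction and did not overlap between genotypes. Of 3 R-spondin pathway genes tested 0 passed, with Znrf3 at 0.34 and Rnf43 at -0.29.

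The remaining calls fell in the cytoplasmic, nuclear, target and polarity lists. Of 26 cytoplasmic genes 5 rose and 0 fell, among them Apc, a scaffold of the destruction complex, with 50.8 ± 2.49 CPM (SD, n = 3) in WT mice, 88.0 ± 13.6 CPM (SD, n = 3) in Trpm2-/- mice and a log2 fold change of 0.79 (SE 0.142, edgeR adjusted p = 0.00825). The casein kinases Csnk1e and Csnk1g1 rose by 0.67 and 0.54 on the log2 scale (edgeR adjusted p = 0.0182 and 0.0483), and Gsk3b and Usp34, named after their values were seen, were the others at 0.58 and 0.97 (edgeR adjusted p = 0.0497 and 0.0499). Csnk1g1, Gsk3b and Usp34 thus lay just inside the threshold, and the call of Csnk1g1 was lost in 9 of 14 other settings. Of 17 nuclear genes 2 rose, Ep300, a histone acetyltransferase, by 0.86 (edgeR adjusted p = 0.0107) and Tcf7, a TCF/LEF factor, by 1.32 (edgeR adjusted p = 0.0264). The call of Tcf7 was lost in 5 of 14 other settings, that of Csnk1e in 3, that of Ep300 in 2 and that of Apc in 1. Tcf7 had 1.60, 1.93 and 1.84 CPM in WT mice and 3.49, 5.60 and 4.36 CPM in Trpm2-/- mice. Several of these proteins act against β-catenin and others with it, so the list names no single direction of the pathway.

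Among 15 textbook targets beside Axin2, 5 rose and 1 fell. Sox9, a transcription factor of injured and regenerating tubules, rose from 17.2 ± 3.03 CPM (SD, n = 3) to 38.5 ± 11.4 CPM (SD, n = 3), with a log2 fold change of 1.16 (SE 0.225, edgeR adjusted p = 0.0115). Myc, a growth regulator, rose by 0.65 (edgeR adjusted p = 0.00981), and Fosl1, a subunit of AP-1, by 0.87 (edgeR adjusted p = 0.0105), though 50.2% of the 75-base windows of Fosl1 are shared with Ccdc85b. The others were Tcf7 and Cd44, an adhesion receptor named here after its values were seen, and Notum was the one that fell. All of these genes are also controlled by other pathways. The call of Myc was lost in 3 of 14 other settings, and those of Fosl1 and Sox9 in 1 each. Of 20 genes of the polarity and calcium branches 1 rose, Camk2d, a calcium-dependent kinase, by 0.70 (edgeR adjusted p = 0.0320), a call lost in 7 of 14 other settings.

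**Figure D5:**
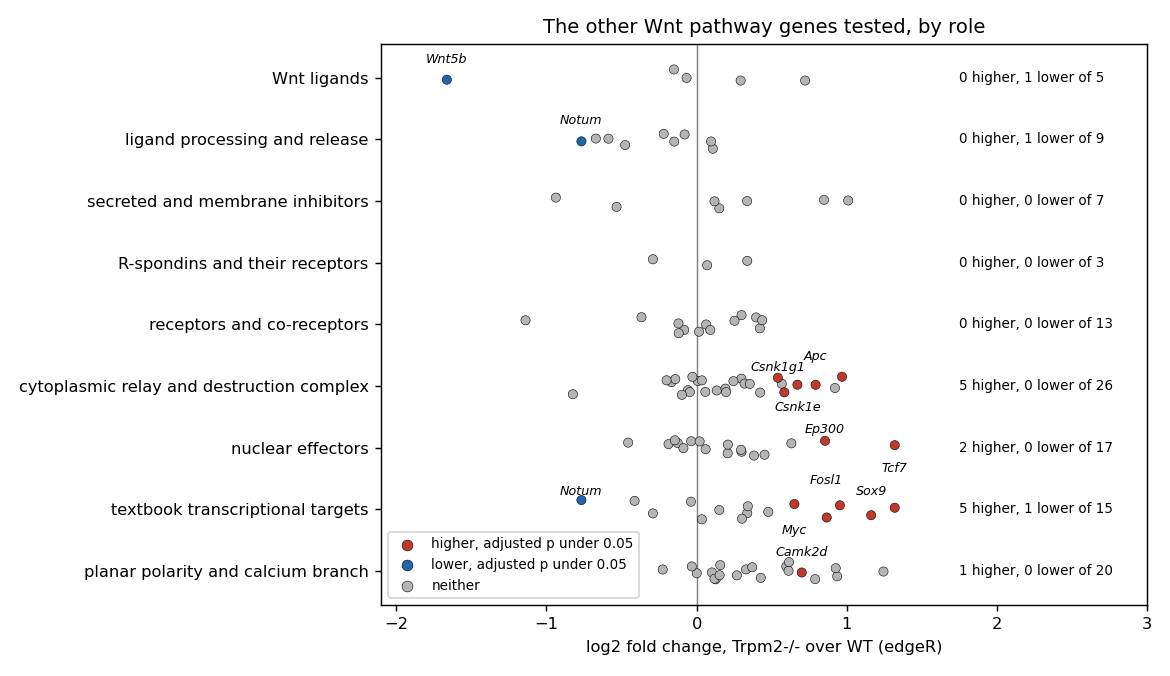
Log2 fold change (Trpm2-/- over WT, edgeR) of each of the 109 other pathway genes tested, by role, with red for genes higher and blue for genes lower at an adjusted p under 0.05. The red points sit in the cytoplasmic, nuclear, target and polarity lists, the blue ones are Wnt5b and Notum, and no red or blue point is among the inhibitors or receptors.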

How the data were processed

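The kidneys of 3 WT and 3 Trpm2-/- mice were sequenced from Trizol RNA with the NEBNext Ultra II kit on an Illumina instrument. The authors deposited a table of raw counts per gene and a table of FPKM values, which scale those counts by gene length and library size. The submitters' processing notes name HISAT2, StringTie and the build mm9, but 98.3% of 54409 genes have the start and end of GENCODE M21, so positions are given on GRCm38. The strand setting and the counting tool are not given in the sources used here. All columns were used (0 left out).

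Counts were tested in R 4.3.3 with edgeR 4.0.16 (filterByExpr, TMM, quasi-likelihood test, two-sided, genotype only), with Benjamini-Hochberg adjustment over 15816 genes. SE is the log2 fold change over the square root of F. The labels number the samples of each genotype and say no more of their source, so p-values measure the spread between these samples. Replicate pairs differed by a chi-square per degree of freedom of 13.5 to 36.7, so none was a repeated library.

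The members and all lists were chosen with earlier results of these data known. Besides the members, up to 3 genes per list and direction with the smallest p among those at an adjusted p under 0.05 were named, or the 2 with the smallest p where a list had none. The 5 genes most like Sfrp2 needed a mean of at least 1 CPM, and names starting with Gm or ending in Rik were left out. Of these 5 genes, 4 are reported here. Alternatives were DESeq2 1.42.0 and its size factors, other filters, limma 3.58.1 on log2(FPKM + 1) and log2(FPKM + 0.1), a replicate block, leaving out mitochondrial genes and leaving out each mouse.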

Additional observations from a re-analysis of the deposited data

How the results depend on the processing

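Of 140 values of the members under other settings, 133 moved by less than the replicate spread, 5 moved by more and 2 turned. Among the 133, values near 0 of Wnt5a, Wnt7b, Wnt9b, Ctnnb1 and Axin2 crossed 0 under at least 1 setting. The log2 fold change of Sfrp2 (4.90) was 1.77 on log2(FPKM + 1), 3.60 on log2(FPKM + 0.1) and 3.45 with a replicate block, and 3.45 (without Trpm2-/- mouse 4) to 5.34 with single mice left out. Without WT mouse 1, Wnt4 turned to 0.57 (range over single mice -1.44 to 0.57), Wnt9b to 1.02 (-0.69 to 1.02) and Rnf43 to 0.024 (-0.465 to 0.024), and Axin2 moved to 1.87 (lowest -0.03). The causes were not tested.

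Of the other pathway genes, 12 higher at an adjusted p became 7 on either FPKM scale, 5 with a replicate block and 1 (without WT mouse 2) to 11 with single mice left out. The 2 lower became 5 with no filter, 1 on either FPKM scale and 0 to 2 with single mice left out. At the study's threshold, 2 higher became 0 on log2(FPKM + 1) and 2 to 7 with single mice left out, and 2 lower became 4 with no filter, 1 with DESeq2, 0 on log2(FPKM + 1) and 1 to 4 with single mice left out. Of the 14 genes called, 14 were called by DESeq2, 11 with its size factors, 12 without mitochondrial genes, 8 on either FPKM scale, 6 with the block and 2 without WT mouse 2 or 3. The labels share only the numbers 1 and 2 between genotypes, and deviations of same-numbered mice correlated at 0.06 and -0.01. Differently numbered pairs ran from -0.248 to 0.217. With so few mice, these correlations cannot show whether same-numbered mice were paired. WT mouse 3 and Trpm2-/- mouse 4 have no partner, so the block leaves the contrast to mice 1 and 2 of each genotype.

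The few Sfrp2 and Axin2 reads in WT mice and 3 mice per genotype limit the precision of these values.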
